A study of Mus musculus with 10 samples.

Results

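The 9 genes described here mark tuft cells, the rare chemosensory cells of the gut epithelium, or make the eicosanoids these cells release. They were taken by symbol from the count table: Dclk1, Trpm5, Pou2f3, Avil, Alox5ap, Ltc4s, Sh2d6, Rgs13 and Ptgs1. All 9 were among the 13932 listed genes, and 8 passed the filter on low counts that left 12477 genes for testing. Ptgs1 did not pass it.

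Total RNA was sequenced from live cells of the mouse ileum, the last stretch of the small intestine, sorted as negative for the leukocyte protein CD45 and positive for the epithelial protein EpCAM. In 5 dIEC mice (H2-Ab1 fl/fl; Villin:Cre+), a Cre transgene driven by the promoter of villin, active throughout gut epithelium, was to delete the floxed gene H2-Ab1, which encodes a chain of MHC class II. The 5 WT mice (H2-Ab1 fl/fl; Villin:Cre-) carried the same floxed alleles without Cre. By the sample labels dIEC 1, 3 and 5 and WT 2, 4 and 6 were males, and dIEC 7 and 9 and WT 8 and 10 were females, 1 library per mouse. The accompanying series description writes Cre- beside both genotypes; here the sample labels were used. Every dIEC mouse and no WT mouse carried Cre, so loss of H2-Ab1 and presence of Cre cannot be told apart. The p-values below measure the spread between these mice.

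Tuft cells sense luminal signals, such as the succinate made by protists, through G protein coupled receptors, a phospholipase C and the cation channel TRPM5. On activation they release the cytokine IL-25, acetylcholine, cysteinyl leukotrienes and prostaglandins. Of these, IL-25 and cysteinyl leukotrienes help start the type 2 response to helminths in mouse small intestine. Their differentiation depends on the transcription factor POU2F3. In mice a subset of tuft cells carries CD45 on its surface. A sort on CD45-negative cells would leave that subset out, which was not tested.

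Total counts ran from 9174101 to 13484363 per library. H2-Ab1 averaged 2.14 ± 0.96 CPM (counts scaled to a common library size after TMM normalization) in dIEC and 208 ± 117 CPM in WT (SD, n = 5 each), so the libraries matched their genotype labels. As a measure of proliferation, the mean log2 CPM of 14 proliferation genes was lowest in dIEC 7 (3.03), WT 10 (3.43) and WT 4 (3.82), and highest in dIEC 9 (5.74). Of the genes that define other cells able to make eicosanoids, 4 of 17 leukocyte markers were listed, and their summed level was 12.4 to 20.4 CPM in dIEC and 9.02 to 18.0 CPM in WT. Most of this sum was the integrin gene Itgam, at 12.7 ± 2.95 CPM in dIEC and 12.8 ± 4.14 CPM in WT. Ptprc, the gene of CD45 itself, was at 0.440 ± 0.304 CPM in dIEC and 0.537 ± 0.170 CPM in WT. The T cell protease gene Gzma, singled out after its values were seen, was at 0.984 ± 0.431 CPM in dIEC and 0.153 ± 0.173 CPM in WT. Gzma had 0 to 21 counts per library, did not pass the filter and was not tested, and its genotypes overlapped. Of 11 mast cell markers the stem cell factor receptor gene Kit was the only one listed, at 10.4 ± 4.51 CPM in dIEC and 11.0 ± 3.57 CPM in WT, and of 9 stromal and endothelial markers 3 were listed, with a sum of at most 3.03 CPM in dIEC and 2.53 CPM in WT.

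Each gene lies on a chromosome of its own in mm10 (GRCm38). Dclk1 is on chromosome 3 (55242364 to 55539068, plus strand), Trpm5 on chromosome 7 (143069153 to 143094642, minus strand) and Pou2f3 on chromosome 9 (43123939 to 43210369, minus strand). Avil is on chromosome 10 (127000709 to 127020994, plus strand) and Alox5ap on chromosome 5 (149264767 to 149288153, plus strand). Ltc4s is on chromosome 11 (50236461 to 50238616, minus strand) and Sh2d6 on chromosome 6 (72513641 to 72521707, minus strand). Rgs13 is on chromosome 1 (144138654 to 144177372, minus strand) and Ptgs1 on chromosome 2 (36230426 to 36252272, plus strand). Some exon sequence is shared with genes on the opposite strand. Trpm5 shares 220 of 6398 exon bases with Tssc4, Avil 165 of 3398 with Tsfm, and Ltc4s 268 of 1014 with the antisense gene Gm26542. Alox5ap shares 189 bases with Gm19719, Ptgs1 148 with Gm43621 and Dclk1 87 with Gm42609 and 27 with Gm21954, and Pou2f3, Sh2d6 and Rgs13 share none. The libraries were stranded, but whether strand was used in counting is not stated, and a part of the counts of these genes may belong to their partners. Tssc4 was at 12.1 ± 3.27 CPM in dIEC and 12.9 ± 1.31 CPM in WT, Tsfm at 10.7 ± 3.96 and 12.3 ± 4.66 CPM in dIEC and WT, and Gm26542 at 0.702 ± 0.303 and 1.04 ± 0.341 CPM in dIEC and WT (SD, n = 5 each).

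Promoters of 3 genes are shown because these genes behaved differently below: Trpm5 followed most of the other genes from library to library, Avil varied least, and Ltc4s differed most between the genotypes. Each is the RefSeq window (GRCm38.p6) from 250 bases before the transcription start to 50 bases into the gene, 5′ to 3′ on the gene's own strand. Capitals mark ATGCAAA, the core of the octamer bound by POU-domain factors such as POU2F3, or its reverse complement TTTGCAT.
Trpm5 (chr7:143094593-143094892, minus strand): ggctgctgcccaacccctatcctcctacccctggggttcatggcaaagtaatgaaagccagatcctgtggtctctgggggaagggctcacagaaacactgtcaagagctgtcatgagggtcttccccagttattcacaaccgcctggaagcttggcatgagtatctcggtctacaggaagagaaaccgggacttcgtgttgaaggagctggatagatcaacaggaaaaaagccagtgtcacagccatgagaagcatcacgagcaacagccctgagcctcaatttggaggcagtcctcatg
Avil (chr10:127000459-127000758, plus strand): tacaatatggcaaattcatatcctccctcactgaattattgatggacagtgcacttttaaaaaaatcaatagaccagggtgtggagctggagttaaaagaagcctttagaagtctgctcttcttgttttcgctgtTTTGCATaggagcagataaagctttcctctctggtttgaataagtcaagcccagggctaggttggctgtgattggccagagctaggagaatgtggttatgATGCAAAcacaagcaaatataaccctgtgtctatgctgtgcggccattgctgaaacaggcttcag
Ltc4s (chr11:50238483-50238782, minus strand): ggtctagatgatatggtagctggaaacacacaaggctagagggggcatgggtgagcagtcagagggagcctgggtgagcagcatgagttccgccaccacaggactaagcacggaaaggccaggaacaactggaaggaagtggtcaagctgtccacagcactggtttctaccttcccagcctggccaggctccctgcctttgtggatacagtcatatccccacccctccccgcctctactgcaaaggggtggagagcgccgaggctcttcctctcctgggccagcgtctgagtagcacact
Windows were listed for 7 of the 9 genes, Dclk1 with a pair of start sites, and both strands were searched. Avil alone had a match, and it had one in each orientation. The forward match began 15 bases and the reverse match 115 bases before the start site. Of 32851 promoter windows in the table, 4.63% held the letters on either strand. A match is a description of the sequence and not a bound site.

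Compared per length, as CPM per kb of annotated exon over all 10 libraries, Avil (2.53 ± 0.394), Ltc4s (2.50 ± 1.53), Trpm5 (1.75 ± 0.604) and Rgs13 (1.60 ± 0.956) were highest. Sh2d6 (1.27 ± 0.628), Alox5ap (0.726 ± 0.598), Dclk1 (0.506 ± 0.236), Pou2f3 (0.469 ± 0.294) and Ptgs1 (0.237 ± 0.112) followed (CPM per kb, mean ± SD, n = 10). Each neighbouring pair in this order differed by less than the larger of its SDs. The annotated exons of Dclk1 cover 15296 bases over all its isoforms, which lowers its value on this scale. In all, the 9 genes had 207 to 829 counts per library, or 0.00193% to 0.00668% of the total.

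**Figure D1:**
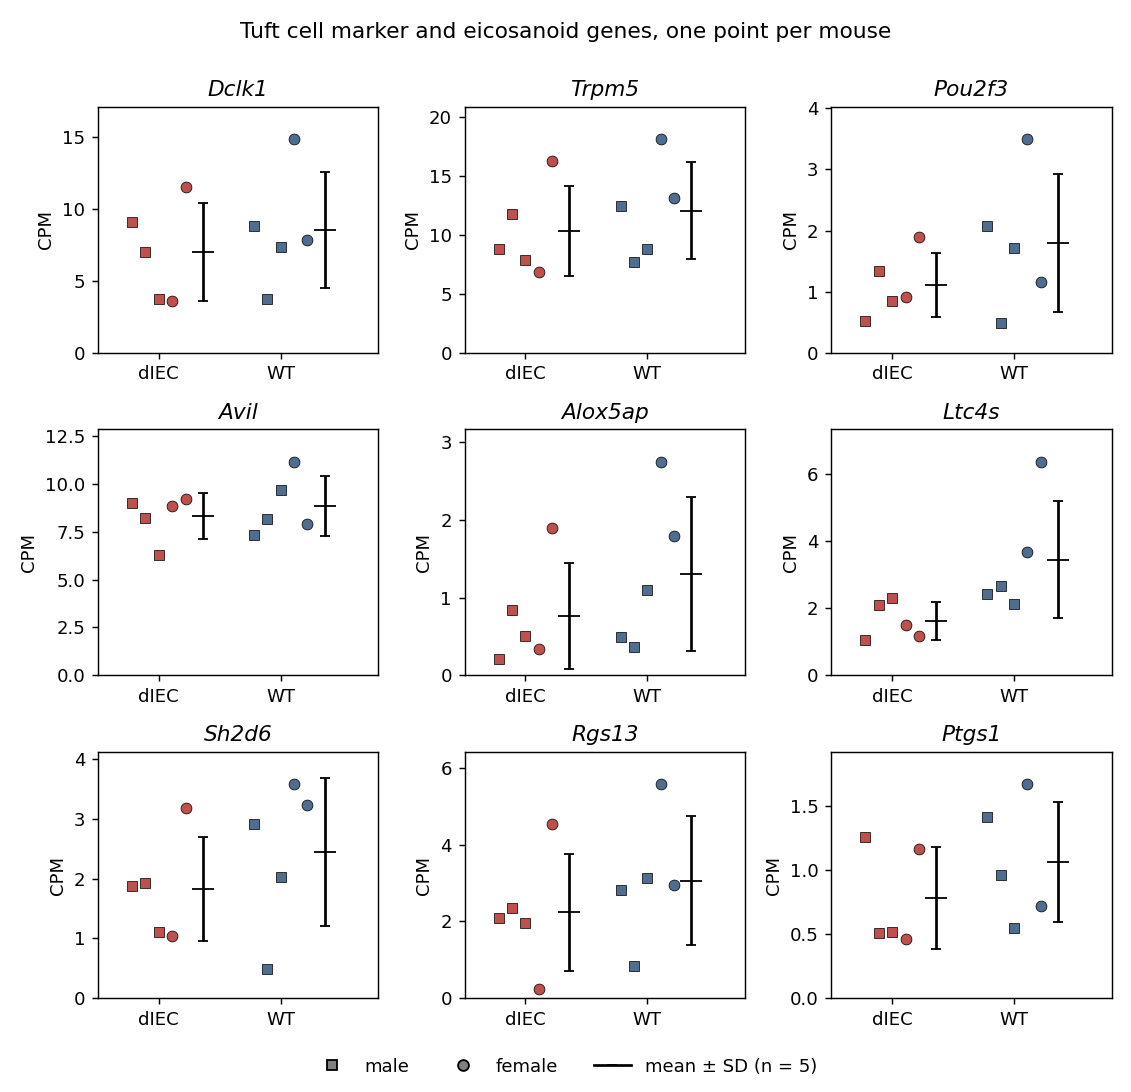
CPM of each gene in each mouse (squares males, circles females), with mean ± SD of 5 mice beside them, dIEC left of WT. The genotypes overlap for all 9 genes, and WT 8 (the highest WT circle in 8 of the panels) tops every gene except Ltc4s.

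Dclk1 encodes a microtubule-binding kinase and is the usual histological marker of tuft cells in mouse. It had 9.10, 6.98, 3.75, 3.56 and 11.5 CPM in dIEC 1, 3, 5, 7 and 9, against 8.81, 3.73, 7.35, 14.8 and 7.80 CPM in WT 2, 4, 6, 8 and 10. The lowest values of both genotypes were alike and the groups overlapped. The mean was 6.97 ± 3.42 CPM in dIEC and 8.51 ± 4.03 CPM in WT (SD, n = 5 each). The log2 fold change of dIEC over WT was -0.24 (SE 0.39, edgeR adjusted p = 0.9999).

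Trpm5, the channel that depolarises the cell after taste-like receptors fire, had 8.79, 11.8, 7.84, 6.90 and 16.3 CPM in dIEC 1, 3, 5, 7 and 9, against 12.5, 7.70, 8.84, 18.2 and 13.2 CPM in WT 2, 4, 6, 8 and 10. Again dIEC 9 and WT 8 stood highest within their genotypes. With 60 to 266 counts per library it was the most deeply counted of the 9, and its log2 fold change of -0.19 (SE 0.26) did not pass the test.

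Pou2f3, the lineage factor, was near the limit of these libraries, with 4 to 42 counts. It had 0.523, 1.35, 0.852, 0.920 and 1.90 CPM in dIEC 1, 3, 5, 7 and 9, against 2.08, 0.481, 1.72, 3.50 and 1.17 CPM in WT 2, 4, 6, 8 and 10. The lowest value of all was in WT 4 and the highest in WT 8. The log2 fold change was -0.67 (SE 0.46), not past the threshold.

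Avil encodes advillin, an actin-binding protein of the villin family found in the apical bundle of tuft cells. It had 8.998, 8.24, 6.31, 8.85 and 9.20 CPM in dIEC 1, 3, 5, 7 and 9, against 7.31, 8.18, 9.70, 11.2 and 7.89 CPM in WT 2, 4, 6, 8 and 10. It was the steadiest of the 9, with a coefficient of variation of 15.6% over 10 libraries where counting alone gives 10.1%. The other genes varied by 34.5% (Trpm5) to 82.4% (Alox5ap), with 8.66% and 28.0% from counting. Its log2 fold change was -0.09 (SE 0.18).

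Sh2d6, which encodes an SH2-domain protein, ran from 1.03 to 3.19 CPM in dIEC and from 0.481 to 3.59 CPM in WT. Rgs13, a regulator that switches off G protein signals, ran from 0.230 to 4.54 CPM in dIEC and from 0.842 to 5.59 CPM in WT. For Rgs13 the lowest library, dIEC 7, held 2 counts, and the highest CPM was 24.3 times the lowest. Their log2 fold changes were -0.37 (SE 0.44) and -0.39 (SE 0.57), neither passed, and for both genes the genotypes overlapped.

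Of the 3 eicosanoid genes, Alox5ap and Ptgs1 had the fewest counts of all 9 genes. Alox5ap encodes FLAP, which hands arachidonic acid to 5-lipoxygenase at the start of leukotriene synthesis. It had 0.209, 0.841, 0.511, 0.345 and 1.90 CPM in dIEC 1, 3, 5, 7 and 9, against 0.499, 0.361, 1.10, 2.75 and 1.79 CPM in WT 2, 4, 6, 8 and 10. The 3 highest values belonged to females, though dIEC 7, also a female, was among the lowest. With 2 to 33 counts per library, and under 10 counts in 5 of 10 libraries, it was close to the mark for low counts, and its log2 fold change was -0.62 (SE 0.51).

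Ltc4s encodes leukotriene C4 synthase, which joins glutathione to leukotriene A4 and so makes the first cysteinyl leukotriene. It had 1.05, 2.10, 2.30, 1.49 and 1.17 CPM in dIEC 1, 3, 5, 7 and 9, against 2.41, 2.65, 2.11, 3.67 and 6.37 CPM in WT 2, 4, 6, 8 and 10. The genotypes nearly separated: 4 of 5 WT libraries lay above every dIEC library, and WT 6 lay above 4 of 5 dIEC libraries, below dIEC 5. The mean was 1.62 ± 0.558 CPM in dIEC and 3.44 ± 1.74 CPM in WT (SD, n = 5 each), a log2 fold change of -0.999 (SE 0.37). The unadjusted p was 0.0223 and the edgeR adjusted p = 0.9999, so Ltc4s did not pass over all genes. Without WT 10 the log2 fold change was -0.74. Over 22 alternative fits it ran from -1.91 in females alone to -0.37 without dIEC 7 and dIEC 9. With limma voom it was -0.53. The overlapping antisense gene Gm26542 was also highest in WT 10 (1.52 CPM) and lowest in dIEC 1 (0.42 CPM). What part the shared bases have in the Ltc4s values was not tested.

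Ptgs1 encodes cyclooxygenase 1, which makes the common precursor of prostaglandins. It was marked low, with 4 to 20 counts and under 10 counts in 6 of 10 libraries. It had 1.26, 0.504, 0.511, 0.460 and 1.17 CPM in dIEC 1, 3, 5, 7 and 9, against 1.41, 0.963, 0.548, 1.67 and 0.717 CPM in WT 2, 4, 6, 8 and 10. The mean was 0.779 ± 0.396 CPM in dIEC and 1.06 ± 0.470 CPM in WT, and in a fit without the filter the log2 fold change was -0.43.

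Across the comparison of dIEC with WT, none of the 8 tested genes passed, where 0.016% of all 12477 tested genes were called by edgeR (2 genes), and none was called by DESeq2. At an unadjusted p under 0.05 it was 1 of 8, Ltc4s, where the share over all tested genes was 2.85%. In none of the 9 genes were the genotypes free of overlap, where 0.136% of all tested genes were lower and 0.176% higher in every dIEC library than in every WT library. All 8 fitted values were below 0, with a median log2 fold change of -0.38, beside 47.4% of all tested genes below 0 and a median over all of 0.01. These 8 values are not independent, since most of the genes varied together over the same 10 libraries. Other marker lists also leaned to 1 side, with 6 of 6 crypt stem, 9 of 10 enteroendocrine and 11 of 14 proliferation genes above 0. Above 0 were also 8 of 12 mature enterocyte, 5 of 7 Paneth and 5 of 8 goblet markers. The median of the members tested was -0.15 without dIEC 7, -0.22 without WT 8, -0.25 without WT 2, -0.61 without WT 4 and -0.68 without dIEC 9. It was -0.66 in females alone, -0.14 in males alone and -0.18 without both dIEC females. The filter was rerun in each fit, so these medians cover from 7 to 9 members. Ptgs1 entered some of these fits, such as that without dIEC 7, and Alox5ap was not in that of males alone. Without dIEC 7 the values of single genes came close to 0, with -0.005 for Trpm5, -0.0091 for Dclk1 and -0.047 for Rgs13, and without WT 8 the values were -0.012 for Dclk1, -0.066 for Trpm5 and -0.0014 for Avil. No difference between the genotypes was established for these genes. In bulk RNA from sorted cells, the number of tuft cells and the RNA of these genes per tuft cell cannot be told apart.

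**Figure D2:**
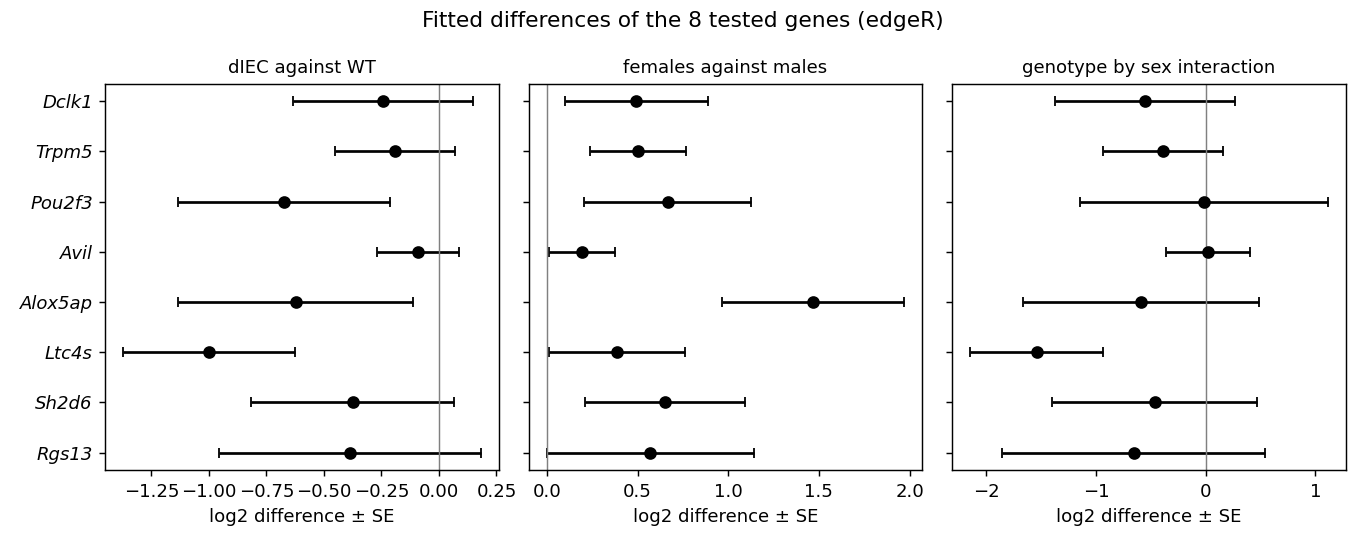
Fitted log2 differences of the 8 tested genes with their SE, one panel per comparison. A positive value means higher in the first-named group or, for the interaction, a larger value of dIEC over WT in females than in males. In dIEC against WT the values run from -0.999 (Ltc4s) to -0.09 (Avil), and in females against males from 0.19 (Avil) to 1.47 (Alox5ap).

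Most of these genes varied together from mouse to mouse, in both genotypes. WT 8, a female, had the highest CPM for 8 of 9 genes and a summed level of 65.0 CPM. Next in the sum came dIEC 9 (50.9 CPM), WT 10 (45.1 CPM) and WT 2 (40.7 CPM), then WT 6 (36.5 CPM), dIEC 3 (36.1 CPM) and dIEC 1 (33.9 CPM). WT 4 (25.4 CPM), dIEC 5 (25.1 CPM) and dIEC 7 (23.8 CPM) were lowest, and dIEC 7 was among the lowest 2 libraries for 6 of 9 genes and WT 4 for 5 of 9. The summed level was 34.0 ± 10.9 CPM in dIEC and 42.5 ± 14.5 CPM in WT (SD, n = 5 each), and the spread within each genotype exceeded the difference between them.

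**Figure D3:**
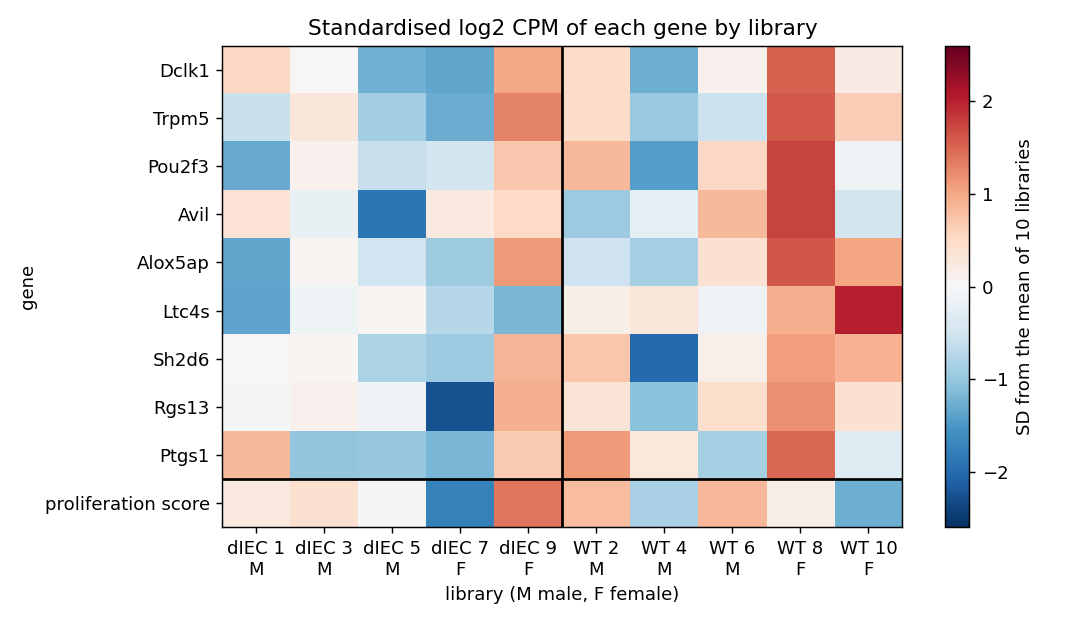
Log2 CPM of each gene (rows) in each library (columns, dIEC left of the line and WT right of it), in SD from the gene's mean over 10 libraries, with the proliferation score as the bottom row. dIEC 9 and WT 8 are high in most rows and dIEC 7 and WT 4 low, while Ltc4s peaks in WT 10.

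The level of the tuft cell genes and the proliferation score were low or high together in some libraries but not in others. Both the lowest summed tuft level and the lowest proliferation score (3.03) belonged to dIEC 7, WT 4 was low in both (score 3.82), and dIEC 9 was high in both (score 5.74). WT 10 departed from this order, with the second lowest score (3.43) and the third highest tuft sum. So did dIEC 5, low in the tuft sum (25.1 CPM) at a score of 4.49, above those of WT 10 and WT 4. With the score as a covariate the median log2 fold change of dIEC over WT was -0.55, and again no tested member was called. WT 8, highest in the tuft sum, had a middling score (4.69). What part proliferation has in these values was not tested beyond this fit.

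The correlation of log2 CPM over the 10 libraries is given as a description, since all pairs share the same libraries and their depth. Among Dclk1, Trpm5, Pou2f3, Alox5ap, Sh2d6 and Rgs13, a group chosen after their values were seen, the 15 pairs had a Pearson r of 0.652 to 0.890. Dclk1 and Sh2d6 were the closest pair (0.890), followed by Dclk1 and Trpm5 (0.877). Ltc4s and Avil stood outside this group. The median r with the 8 other genes was 0.225 for Ltc4s and 0.383 for Avil, against 0.802 for Trpm5, and Ltc4s and Avil gave the lowest r of all pairs (-0.109). Ltc4s was closest to Alox5ap (0.489), the other leukotriene gene. Ptgs1, with its low counts, had a median r of 0.404.

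**Figure D4:**
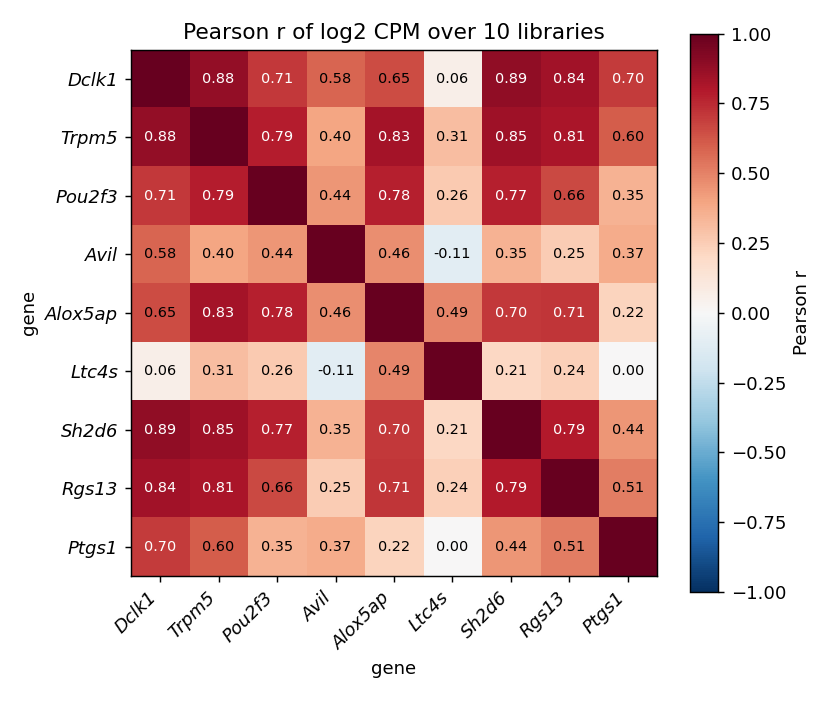
Pearson r of log2 CPM between each pair of the 9 genes over 10 libraries, with no test. The row of Ltc4s is pale, from -0.109 with Avil to 0.489 with Alox5ap, while the row of Trpm5 reaches 0.877.

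The counts can also be set against each other within a library, a measure that restates the values above, was chosen after they were seen and is given without a test. Relative to the summed counts of the other 8 genes, Ltc4s stood at 3.19%, 6.19%, 10.1%, 6.70% and 2.35% in dIEC 1, 3, 5, 7 and 9, against 6.29%, 11.6%, 6.14%, 5.99% and 16.4% in WT 2, 4, 6, 8 and 10. The lowest shares were those of dIEC 9 and dIEC 1, and the highest that of WT 10. dIEC 9 and WT 8 were alike in being rich in most tuft transcripts, but Ltc4s had 1.17 CPM in dIEC 9 and 3.67 CPM in WT 8. On the same scale Avil stood at 59.2% in dIEC 7, 47.6% in WT 4, 22.1% in dIEC 9 and 20.8% in WT 8. Since Avil itself varied little in CPM, this ratio is set mostly by the level of the other genes. Tsfm, which overlaps Avil on the opposite strand, had 6.55 CPM in dIEC 7, 7.82 CPM in WT 4, 15.5 CPM in dIEC 9, 17.4 CPM in WT 8 and 6.90 CPM in WT 10, where the ratio of Avil was 21.2%. Rgs13 stood at 0.976% of the other 8 genes in dIEC 7, where the rest of the libraries had 3.43% (WT 4) or more.

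**Figure D5:**
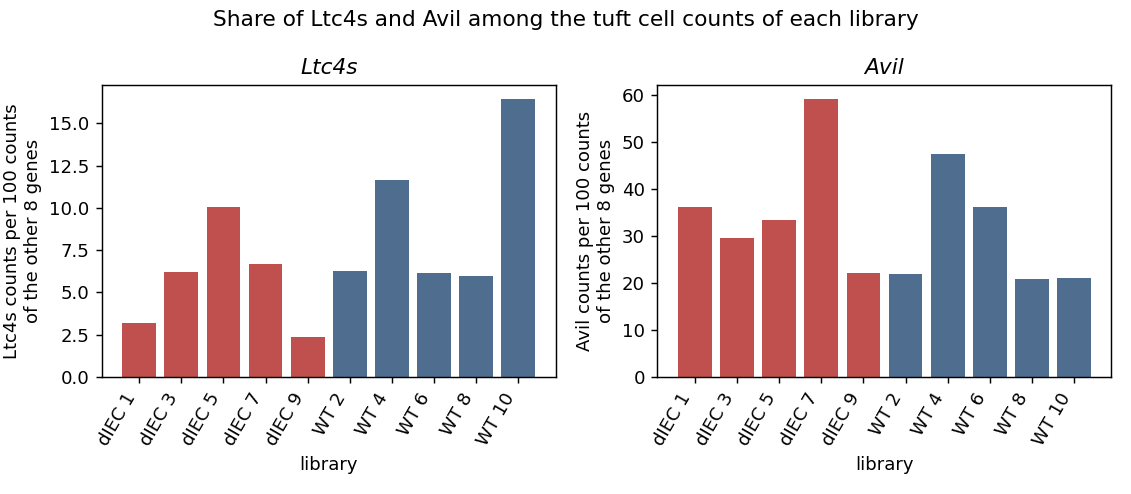
Counts of Ltc4s (left) and Avil (right) as a percentage of the counts of the other 8 genes in each library, dIEC bars left of WT bars. WT 10 has the most Ltc4s (16.4%) and dIEC 9 the least (2.35%), while dIEC 7 (59.2%) and WT 4 (47.6%) have the most Avil.

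Outside the 9, the 8 tested genes whose log2 CPM was most like the mean standardised level of the 8 tested members were Samm50, Ndufb6, Car4, Mrpl18, Ccdc91, Coa3, Acot7 and Coq5 (Pearson r from 0.957 to 0.981 over 10 libraries, out of 12469 genes ranked). Samm50, of the sorting machinery of the mitochondrial outer membrane, was at 87.9 ± 14.4 CPM in dIEC and 111 ± 26.7 CPM in WT. Ndufb6, of respiratory complex I, was at 23.5 ± 6.88 CPM in dIEC and 33.5 ± 13.7 CPM in WT. Car4, a membrane carbonic anhydrase, was at 48.3 ± 24.7 CPM in dIEC and 94.3 ± 52.6 CPM in WT. Of the listed tuft cell genes beyond the 9, the lipid phosphatase gene Inpp5d (r = 0.953, rank 11) was closest, then Ptpn18 (0.922, rank 70). Lrmp, at r = 0.800, had rank 744 of 12469, so many tested genes outside the 9 were at least as close. The other listed genes of tuft cells and eicosanoids ranged widely. Among chemosensing and identity genes Il17rb (r = 0.042) was near 0, and Ptpn6 (-0.234), Itpr3 (-0.388) and Tas1r3 (-0.688) were negative. Among eicosanoid genes the values ran from 0.895 for Alox5 (rank 164) to -0.852 for Ptgdr and -0.917 for Slco2a1.

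Related genes came from lists chosen with earlier results of these data known. Their counts stand beside 0.016% of all tested genes called, 2.85% at an unadjusted p under 0.05 and 47.4% with a negative log2 fold change. Of 10 tuft chemosensing genes 5 were tested, and 0 were called in either direction between dIEC and WT by edgeR or DESeq2, with 0 at an unadjusted p under 0.05. Of the 5, 2 had a positive and 3 a negative log2 fold change, with a median of -0.14. The sweet and umami receptor subunit gene Tas1r3 was at 5.62 ± 1.46 CPM in dIEC and 4.77 ± 1.57 CPM in WT, and the phospholipase gene Plcb2, which acts between receptor and TRPM5, at 2.68 ± 1.14 CPM in dIEC and 3.29 ± 2.10 CPM in WT. The phospholipase gene Plcg2 was at 39.9 ± 5.49 CPM in dIEC and 44.7 ± 10.7 CPM in WT, and the calcium release channel gene Itpr3 at 321 ± 49.5 CPM in dIEC and 365 ± 76.5 CPM in WT. What share of the counts of Plcg2 and Itpr3 came from tuft cells was not tested. For the G protein genes Gnat3 and Gng13 and the succinate receptor gene Sucnr1 no row was found in the count table, so they were not analysed.

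Of 23 other genes of tuft cell identity and signalling 14 were tested and 0 were called by edgeR or DESeq2, with 1 at an unadjusted p under 0.05. Of the 14, 2 had a positive and 12 a negative log2 fold change, with a median of -0.25. Inpp5d was at 1.07 ± 0.584 CPM in dIEC and 2.02 ± 1.09 CPM in WT (log2 fold change -0.87, SE 0.40), and the kinase gene Matk at 1.23 ± 0.508 CPM in dIEC and 2.17 ± 1.27 CPM in WT (log2 fold change -0.83, SE 0.39). The choline acetyltransferase gene Chat, which makes the acetylcholine of tuft cells, had 0 to 10 counts per library and was not tested, at 0.250 ± 0.252 CPM in dIEC and 0.620 ± 0.257 CPM in WT. For the effector cytokine gene Il25 and the transcription factor gene Gfi1b no row was found in the count table either.

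The rest of the leukotriene pathway gave 10 tested genes of 16, with 0 called by edgeR or DESeq2, 1 (Mgst3) at an unadjusted p under 0.05, 3 positive and 7 negative values and a median log2 fold change of -0.08. Alox5, the 5-lipoxygenase that FLAP serves, was as scarce as Alox5ap, with 2 to 33 counts per library. It was at 0.603 ± 0.387 CPM in dIEC and 1.37 ± 0.898 CPM in WT (log2 fold change -1.10, SE 0.51, unadjusted p = 0.0572). Mgst3 and Mgst2, microsomal glutathione transferases related to LTC4S, were far more abundant. Mgst3 was at 196 ± 22.2 CPM in dIEC and 281 ± 92.3 CPM in WT (log2 fold change -0.49, SE 0.16, unadjusted p = 0.0135), and Mgst2 at 109 ± 10.3 CPM in dIEC and 140 ± 53.2 CPM in WT. Lta4h, which turns leukotriene A4 into B4 instead, was at 284 ± 24.5 CPM in dIEC and 313 ± 47.5 CPM in WT.

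Of 21 genes of the prostanoid pathway 10 were tested and 0 were called by edgeR or DESeq2, with 1 (Ptges2) at an unadjusted p under 0.05, 6 positive and 4 negative values and a median log2 fold change of 0.05. Hpgds, the prostaglandin D synthase of tuft cells, was at 1.32 ± 0.859 CPM in dIEC and 1.34 ± 0.358 CPM in WT, with only 1 to 36 counts per library. Ptges2, a prostaglandin E synthase gene, was at 39.1 ± 5.01 CPM in dIEC and 50.3 ± 13.2 CPM in WT (log2 fold change -0.34, SE 0.12, unadjusted p = 0.0165), and the prostaglandin E2 receptor gene Ptger4 at 43.9 ± 14.3 CPM in dIEC and 33.7 ± 12.8 CPM in WT. The receptor arm through which IL-4 and IL-13 act on the epithelium had 5 tested genes of 7, 0 called by edgeR or DESeq2, 0 at an unadjusted p under 0.05 and 5 positive values. Its receptor chain gene Il4ra was at 162 ± 49.6 CPM in dIEC and 132 ± 16.9 CPM in WT, and Stat6 at 220 ± 43.0 CPM in dIEC and 196 ± 27.5 CPM in WT.

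Set by sex, all 8 tested members were higher in females on average, and again none passed, where 0.0401% of all tested genes were called (5 genes, 0.0321% lower and 0.00801% higher in females). The sexes overlapped for all 9 genes, where 0.433% of all tested genes were lower and 0.513% higher in every female than in every male. The median log2 difference was 0.54, beside 58.4% of all tested genes above 0 and a median over all of 0.04. With limma voom the members' median was 0.14 and Dclk1 was at 0.035. At an unadjusted p under 0.05 there was 1 of 8, Alox5ap, where the share over all tested genes was 4.44%. Alox5ap averaged 1.70 ± 0.999 CPM over 4 females and 0.586 ± 0.326 CPM over 6 males (SD; log2 difference 1.47, SE 0.50, unadjusted p = 0.0146, edgeR adjusted p = 0.9996). Among dIEC mice it averaged 1.12 CPM for females and 0.520 CPM for males, and among WT mice 2.27 CPM for females and 0.652 CPM for males. With the proliferation score as a covariate Alox5ap alone of the 8 was called, higher in females (log2 difference 1.70, adjusted p = 0.0438), in a fit that called 354 genes over all. Trpm5 averaged 13.6 ± 4.95 CPM over females and 9.57 ± 2.04 CPM over males (log2 difference 0.50, SE 0.26). The members' median was 0.21 within dIEC and 0.76 within WT. It was 0.29 without WT 8, 0.36 without dIEC 9, 0.37 without WT 4 and 0.78 without dIEC 7. Markers of other epithelial cells also differed in direction by sex, with 0 called by edgeR or DESeq2. All 8 goblet markers were below 0 (median log2 difference -0.99, 5 at an unadjusted p under 0.05), with a summed level of 4977 to 16230 CPM in females and 12670 to 47920 CPM in males. All 7 Paneth markers were below 0 (median -1.0045, 3 at an unadjusted p under 0.05), with sums of 579.7 to 2233 CPM in females and 2144 to 4332 CPM in males. All 10 enteroendocrine markers (median -0.41) and all 6 crypt stem markers (median -0.43) were below 0 too, with 0 at an unadjusted p under 0.05. The enteroendocrine sums were 136.5 to 352.1 CPM in females and 222.8 to 324 CPM in males, and the crypt stem sums 223 to 1426 CPM in females and 492.6 to 1127 CPM in males. Of 14 proliferation genes 13 were below 0 (median -0.20). Mature enterocyte markers went mostly the other way, with 9 of 12 above 0 and 3 below (median 0.09). The part of these markers in the tuft cell values was not tested. In females 3 of 4 libraries lay among the 3 highest summed levels and 1, dIEC 7, was the lowest.

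Whether the genotype difference depended on sex was tested by the product of both terms. None of the 8 passed, where 0.00801% of all tested genes were called (1 gene), with DESeq2 calling none of the 8 either. At an unadjusted p under 0.05 there was 1 of 8, where the share over all tested genes was 2.1%. This was Ltc4s, with a mean of 1.33 CPM for females of dIEC and 5.02 CPM for females of WT, and of 1.82 CPM for males of dIEC and 2.39 CPM for males of WT. Its interaction was -1.54 on the log2 scale (SE 0.61, unadjusted p = 0.0306). The log2 fold change of dIEC over WT for Ltc4s was -1.91 in females alone and -0.38 in males alone. For Dclk1 these values were -0.58 and -0.04, and for Trpm5 -0.42 and -0.04. Of the 8 interactions 7 were negative, with a median of -0.51, beside 45.2% of all tested genes below 0. The median of the members tested was 0.084 without dIEC 7 and -1.45 without dIEC 9. Leaving out dIEC 3 gave -0.33, leaving out WT 4 gave -0.26 and leaving out WT 8 gave -0.062. Each genotype had 2 females, which differed among themselves.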

How the data were processed

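Total RNA of 10 ileal epithelial libraries was made with a stranded kit after ribosomal RNA removal, per the labels' protocols. The authors deposited raw counts per gene. Novoalign and mm10 are named by the submitters' processing notes. How reads were counted (program, strand, gene models) is not stated there. Positions and exon lengths were read from GENCODE annotation of GRCm38.

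The genes and the related lists were chosen with earlier results of these data known. In R 4.3.3, edgeR 4.0.16 filtered genes with filterByExpr (12477 of 13932 kept) and scaled libraries by TMM. Its robust quasi-likelihood test, on sex plus genotype or with their product, was run over all kept genes, with Benjamini-Hochberg adjustment and a threshold of 0.05. The SE was taken from the log2 fold change and its F statistic. CPM use TMM-scaled totals, log2 CPM a prior count of 2. A gene was marked low with a mean under 1 CPM or under 10 counts in over 5 libraries. Named genes were the 9, H2-Ab1, up to 4 per related list by smallest p (at least 1 CPM on average) plus Hpgds, Alox5, Il25, Gfi1b, Plcb2, Gnat3, Gng13, Chat and Ptprc, and the 8 most correlated genes; those given beyond this rule were chosen after their values were seen. The code was checked on counts simulated gene by gene with known folds. These lacked the shifts that genes share across these libraries, so they do not show which differences could be found here. Alternatives used DESeq2 1.42.0, limma 3.58.1 (voom), other scalings, filters, covariates and subsets. Depth was 9174101 to 13484363 counts per library; the coefficients of variation from counting cover counting error only. Each library is 1 mouse, per the series text. The values of 1 related gene are not reported here.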

Additional observations from a re-analysis of the deposited data

How the results depend on the processing

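In dIEC against WT all 8 tested members kept a negative log2 fold change under every alternative run (other scalings, filters, tools, covariates, single sexes and each library left out), except that Alox5ap was not tested in males alone or with at least 1 CPM required in 5 libraries, and none was called. The sign alone was kept: leaving out 1 library gave -0.36 to -0.005 for Trpm5, -0.46 to -0.0091 for Dclk1, -0.84 to -0.047 for Rgs13 and -0.17 to -0.0014 for Avil. It moved the members' median between -0.68 and -0.15, and the median was -0.14 in males alone. The members tested also changed between fits, with 8 without dIEC 9, 9 without dIEC 7 and 7 in males alone. The count over all genes was 2, but 4 with DESeq2 and 0 in females alone. In females against males it was 5, but 13 with DESeq2, 354 with the proliferation score as a covariate and 9 without dIEC 7 and dIEC 9. With the score 1 member, Alox5ap, was called. With limma voom the members' median was 0.14 (0.54 in edgeR). Directions turned for Pou2f3 (-0.080) and Rgs13 (-0.49) with limma voom and for Ltc4s within dIEC (-0.50). For the interaction the count was 1, but 18 with DESeq2, 12 with the proliferation score, 0 with library size only, 0 with limma voom, and 0 to 1 when a library was left out. The members' median was -1.11 with the proliferation score, and -1.45 to 0.084 when a library was left out. The interaction of Pou2f3 turned to 0.0014 with DESeq2 size factors, 0.16 with library size only and 0.19 with limma voom, and that of Avil to -0.013 with the score. Leaving out 1 library gave interactions of -2.35 to 0.071 for Alox5ap, -0.21 to 0.33 for Avil, -1.64 to 0.051 for Dclk1, -0.67 to 1.05 for Pou2f3, -4.04 to 0.20 for Rgs13, -1.53 to 0.084 for Sh2d6 and -1.15 to 0.086 for Trpm5. The cause of these moves was not tested. The labels give each mouse its own number and state no pairs, so no paired analysis was run. With plain column totals each mean CPM moved by less than its SD. Low counts limit Ptgs1, Alox5ap and Pou2f3 most among the members, and also Alox5, Hpgds and Chat among the related genes.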
